A study of Rattus norvegicus with 12 samples.

Results

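The genes described here form a module of 42 genes built around ATF4, a transcription factor of the cellular stress response. They were chosen by name and not by a rule on the measured values, but with earlier results of these data known. They fall in 4 role groups: 10 transcription factors and stress regulators, 8 enzymes of amino acid and one-carbon synthesis, 5 amino acid transporters and 19 cytosolic aminoacyl-tRNA synthetases. All 42 were found among the 16002 gene IDs used, and all 42 were among the 11398 genes with enough counts to be tested. Gene expression was measured by RNA sequencing of polyadenylated RNA in H9C2 cells, an established rat line of heart-derived myoblasts, with 4 libraries in each of 3 groups. LITAF cells carried a lentiviral vector that overexpresses LITAF, an endosomal and lysosomal membrane protein first named as an LPS-induced TNF factor, and were kept in 1% O2 for 8 h and then reoxygenated for 2 h. H/R cells carried the empty lentiviral vector and went through the same hypoxia and reoxygenation. Control cells stayed in normoxia and carried no vector. Genotype is given as LITAF overexpression for LITAF cells and as wild type for H/R and control cells, and the labels place all libraries in 1 batch. The sources used here name neither the promoter that drives LITAF in the vector nor whether transduced cells were cloned or pooled.

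ATF4 is the main transcriptional arm of the integrated stress response. Kinases that sense amino acid shortage, unfolded protein in the endoplasmic reticulum, viral RNA or haem shortage phosphorylate the initiation factor eIF2, which slows translation in general and lets ribosomes reach the ATF4 reading frame. ATF4 then binds, often as a dimer with a C/EBP protein, to C/EBP-ATF response elements and raises transcription of genes that make amino acids, import them and load them onto tRNA. ATF4 is regulated to a large extent in translation, so the mRNA level alone does not give the level of the protein.

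The library totals lay between 17.2 and 18.4 M counts in LITAF cells, 16.9 and 18.1 M in H/R cells and 19.2 and 20.7 M in control cells. Litaf itself stood at 2691, 2008, 2532 and 2120.3 CPM (counts per M after TMM scaling) in LITAF cells, against 549, 619, 573 and 598 CPM in H/R cells, a log2 fold change of 2.00 ± 0.10 (SE; adjusted p = 1.38e-08, edgeR's quasi-likelihood test with Benjamini-Hochberg adjustment over all genes tested). The LITAF and H/R groups did not overlap, and control cells lay at 456 to 491 CPM. The 12 cardiomyocyte markers summed to 199 to 279 CPM in LITAF cells, 119.8 to 149.7 CPM in H/R cells and 273 to 509 CPM in control cells, mostly through Tnnt2 (169 CPM on average in LITAF cells, 67.9 CPM in H/R cells and 304 CPM in control cells) and the factors Hand2, Gata4 and Nkx2-5. Actc1 stood at 4.78 CPM on average in LITAF cells, 0.687 CPM in H/R cells and 1.30 CPM in control cells, and the other 7 (Myh6, Myh7, Tnni3, Nppa, Nppb, Ryr2 and Tbx5) averaged under 1 CPM in every group. The 5 endothelial markers summed to at most 0.918 CPM in any library, and the 4 macrophage markers found summed to 10.5 to 11.8 CPM in LITAF cells, 8.79 to 10.7 CPM in H/R cells and 13.1 to 21.8 CPM in control cells, mostly through Cd14, with Ptprc at most 0.0554 CPM on average in any group. The 8 skeletal myoblast markers summed to 526 to 592 CPM in LITAF cells, 512 to 644 CPM in H/R cells and 2209.6 to 6484.5 CPM in control cells, mostly through Cdh15 in LITAF and H/R cells and through Myog in control cells. The 6 fibroblast-type markers summed to 27841 to 36325 CPM in LITAF cells, 23594 to 26768 CPM in H/R cells and 60276 to 76149 CPM in control cells. Between LITAF and H/R cells, 2 of 5 cardiomyocyte markers tested rose (Actc1 6.91-fold and Tnnt2 2.49-fold), as did 3 of 7 skeletal myoblast markers (Tnni1 7.55-fold, Myh3 4.44-fold and Chrna1 4.34-fold) and 1 of 4 fibroblast-type markers (Col3a1, 1.52-fold), and none fell. Of all genes tested, 3.73% rose and 1.15% fell. Between H/R and control cells, 1 cardiomyocyte marker rose and 3 fell, 1 skeletal myoblast marker rose and 4 fell, and 3 fibroblast-type markers and 1 macrophage marker (Cd14) fell. In this comparison 31.8% of all genes tested rose and 31.8% fell. Marker levels thus moved with both comparisons, and their part in the results below was not tested. In RNA from whole cultures, fewer cells that express a gene and less RNA of it per cell cannot be told apart.

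H/R and control cells differed in the vector as well as in oxygen, and their deposited values differed in how many were whole: 11.9 to 12.6% of the values in LITAF libraries and 11.4 to 12.4% in H/R libraries were not whole numbers, against 2.84 to 3.40% in control libraries. Whether control libraries were quantified with other settings is not given in the sources used here. For H/R against control and for LITAF against control, the contributions of hypoxia and reoxygenation, of the vector and of any difference in quantification cannot be told apart. LITAF and H/R cells shared the oxygen schedule, and both carried a lentiviral vector. The labels call the libraries biological replicates and give no culture for any of them; the spread behind each p-value is therefore the one among these libraries and may in part be technical.

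Promoter sequence gives a view of the members that does not depend on the RNA values. In the RefSeq promoters of rat build GRCr8 (250 bases before to 50 after each start), 37 of the 42 members had an entry; Eif4ebp1, Aldh18a1, Slc1a5, Gars1 and Rars1 were not matched. The core of the C/EBP-ATF response element, TGATGNAA on either strand, was found in 12 of the 37 (32.4%), against 191 of 9395 promoters of tested genes (2.03%) and 1048 of all 27457 promoters (3.82%). Its stricter form TGATGCAA, which is contained in TGATGNAA, was found in 10 of 37 (27%), against 0.585% of promoters of tested genes. By role, TGATGNAA was found in 7 of 17 synthetases, 2 of 4 transporters, 2 of 9 regulators and 1 of 7 synthesis enzymes. The full cyclic AMP response element TGACGTCA, held by 3.33% of promoters of tested genes, was found in 0 of 37, and the endoplasmic reticulum stress element, held by 0.16% of them on either strand, likewise in 0 of 37. The members were listed by name as genes around ATF4, so their share of TGATGNAA is not independent of how the list was chosen. The difference from the share over all promoters was not tested. A match is a run of letters and not a measured binding site.

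The stretches below are shown because they hold the element in members whose RNA levels carry the results: a transporter and a regulator that passed the test in LITAF cells against H/R cells (Slc7a1 and Nupr1), 2 further members with large differences between H/R and control cells (Trib3 and Pycr1), and 2 tRNA synthetases (Nars1 and Yars1). Capitals mark TGATGNAA or its reverse complement, and each sequence runs 5′ to 3′ on the gene's own strand.
Slc7a1: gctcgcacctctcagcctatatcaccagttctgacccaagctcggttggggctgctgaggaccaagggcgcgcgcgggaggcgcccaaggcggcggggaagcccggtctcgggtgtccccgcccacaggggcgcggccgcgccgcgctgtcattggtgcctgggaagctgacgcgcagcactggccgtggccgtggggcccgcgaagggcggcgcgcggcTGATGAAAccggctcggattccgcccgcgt
Nupr1: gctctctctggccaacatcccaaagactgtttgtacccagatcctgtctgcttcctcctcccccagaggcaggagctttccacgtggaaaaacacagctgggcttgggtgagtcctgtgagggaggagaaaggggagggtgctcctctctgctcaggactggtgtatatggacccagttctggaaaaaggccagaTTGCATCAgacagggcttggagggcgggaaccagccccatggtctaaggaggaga
Trib3: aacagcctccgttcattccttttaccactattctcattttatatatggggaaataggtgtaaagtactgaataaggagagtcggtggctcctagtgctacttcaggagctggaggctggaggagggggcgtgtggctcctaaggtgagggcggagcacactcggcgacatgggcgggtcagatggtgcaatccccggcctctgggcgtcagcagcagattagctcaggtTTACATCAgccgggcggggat
Pycr1: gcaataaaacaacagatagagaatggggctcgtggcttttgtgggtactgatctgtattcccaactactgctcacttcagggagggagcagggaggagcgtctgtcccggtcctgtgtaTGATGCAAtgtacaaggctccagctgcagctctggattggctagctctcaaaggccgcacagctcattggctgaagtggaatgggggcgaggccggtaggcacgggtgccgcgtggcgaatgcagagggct
Nars1: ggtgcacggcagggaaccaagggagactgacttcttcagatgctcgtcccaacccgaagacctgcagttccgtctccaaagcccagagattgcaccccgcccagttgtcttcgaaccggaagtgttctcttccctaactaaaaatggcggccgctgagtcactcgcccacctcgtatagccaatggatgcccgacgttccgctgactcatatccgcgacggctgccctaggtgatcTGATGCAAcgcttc
Yars1: cggagctacgagctcagcTGATGCAAcctg
The Slc7a1 stretch is chr12:11664238-11664487 on the plus strand and the Yars1 stretch is chr5:146820183-146820212 on the plus strand. On the minus strand are Nupr1 (chr1:190645902-190646151), Trib3 (chr3:161275534-161275783), Pycr1 (chr10:106420813-106421062) and Nars1 (chr18:60275783-60276032). With the start base counted as 0, the element began at -30 in Slc7a1, -55 in Nupr1, -21 in Trib3, -131 in Pycr1, -14 in Nars1 and 38 in Yars1. Trib3 carried the form TTACATCA and Slc7a1 the form TGATGAAA, while Nupr1, Pycr1, Nars1 and Yars1 carried TGATGCAA or its reverse complement TTGCATCA. The 12 members held 13 matches in all, since Aars1 had 2 (one of them TTTCATCA after the start), and 7 of the 13 lay within 60 bases before the start. The other holders were Slc1a4, Cars1, Iars1, Mars1 and Tars1.

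Between H/R cells and control cells most of the module was higher. Of the 42 members, 34 rose (81.0%, against 31.8% of all genes tested), 0 fell by edgeR's quasi-likelihood test (31.8% of all genes tested fell; 0 members also at an unadjusted p under 0.05 and by DESeq2) and 8 did not pass: Stc2, Psat1, Slc38a2, Eprs1, Farsa, Farsb, Gars1 and Hars1. The median log2 fold change of the members was 0.70, against 0.01 for all genes tested, and 15 members rose at least 2-fold. In 34 members every H/R library lay above every control library, where 30.2% of all genes tested did so. The same counts by role were 9 of 10 regulators, 7 of 8 synthesis enzymes, 4 of 5 transporters and 14 of 19 synthetases. Across the 15 alternatives run, 33 to 36 members rose, and 0 fell except for Eprs1 without control library 2 (log2 -0.36, adjusted p = 0.0234) and Slc38a2 without control library 4 (log2 -0.28, adjusted p = 0.0289).

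Between LITAF cells and H/R cells few members passed the test. Nupr1, Slc7a1, Asns and Psat1 rose (4 of 42, 9.52%, against 3.73% of all genes tested), 0 fell (1.15% of all genes tested fell) and 38 did not pass. At an unadjusted p under 0.05, edgeR gave 12 members higher and 0 lower, against 11.3% and 8.76% of all genes tested. The median log2 fold change of the members was 0.17, against -0.01 for all genes tested, and 34 of 42 members (81%) had a positive value, against 48.2% of all genes. In 16 members every LITAF library lay above every H/R library and in 1, Rars1, below, where 10.6% and 8.30% of all genes tested did so. The count of 4 depended on the fit: 8 members rose with DESeq2 (5.50% of all genes), 11 in edgeR's test on these 8 libraries alone (6.91%) and 2 with library totals as the only scaling (2.81%). It was 5 without LITAF library 1 (6.01% of all genes rose and 5.15% fell), and 2 without any one of the other 7 libraries (1.78 to 2.97% of all genes rose), which left Nupr1 and Slc7a1. Of all 556 genes called in this comparison 76.4% were higher, with library totals alone 61.0% and without LITAF library 1 53.9%.

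**Figure D1:**
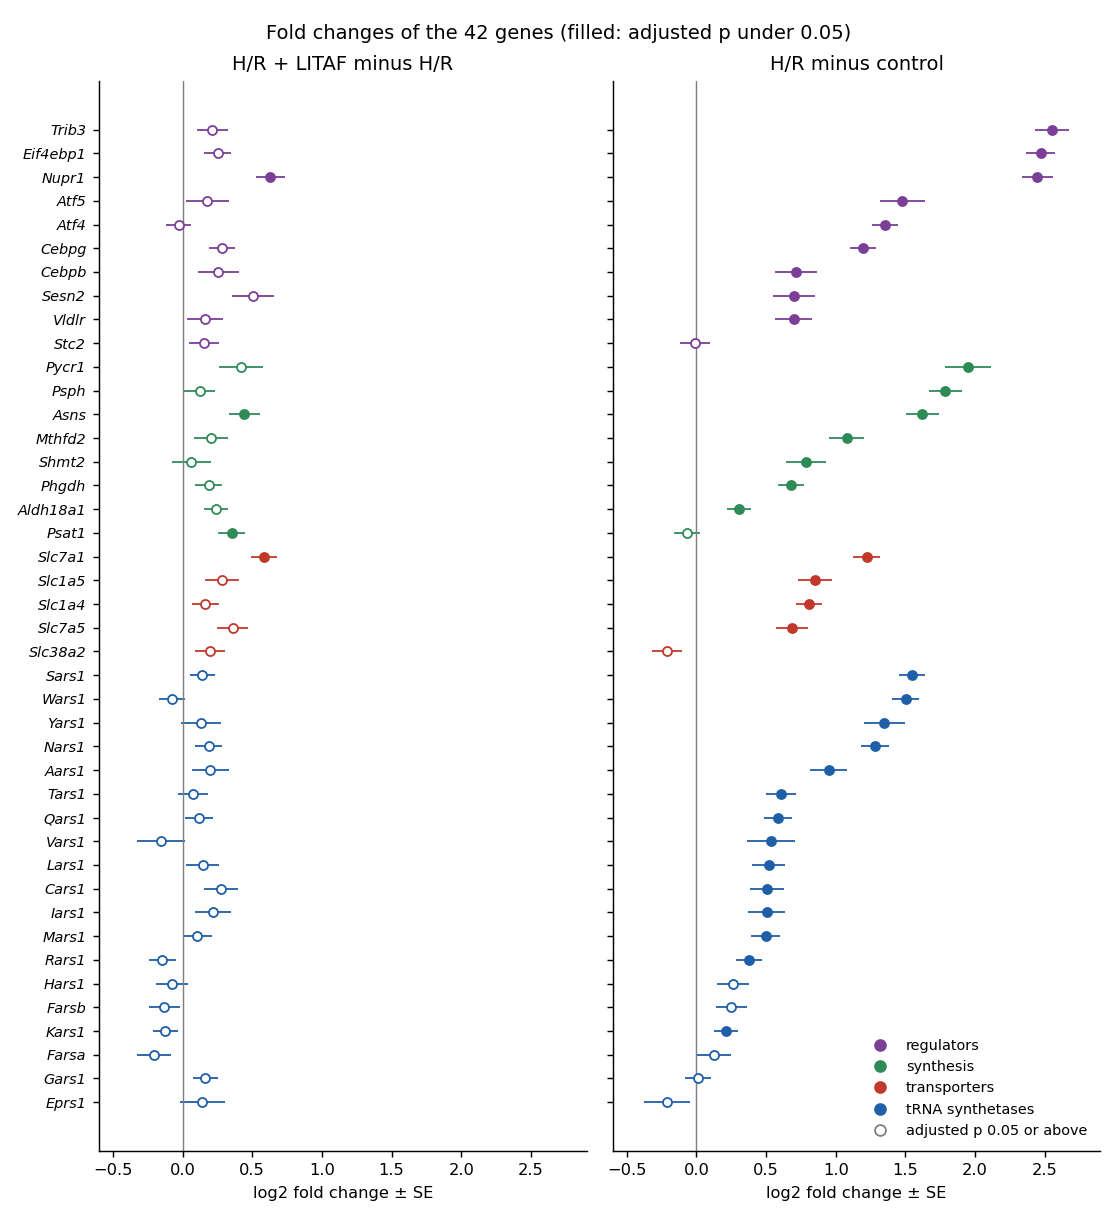
Log2 fold change of each of the 42 members, with SE, for LITAF against H/R and for H/R against control (x axis, log2 units; rows grouped by role). LITAF is drawn as H/R + LITAF. Values for H/R against control spread up to 2.55 (Trib3), while values for LITAF against H/R stayed between -0.20 and 0.63.

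Among the transcription factors and stress regulators, Atf4 mRNA was higher in H/R cells than in control cells and did not pass between LITAF and H/R cells. Atf4 stood at 815, 999.6, 935 and 950.5 CPM in LITAF cells, 931, 944, 938 and 957 CPM in H/R cells and 401, 385, 351 and 339 CPM in control cells. All 4 H/R libraries lay above all 4 control libraries, while the LITAF libraries lay on both sides of the narrow H/R range, with LITAF library 1 lowest. The log2 fold change was -0.03 ± 0.09 for LITAF against H/R (adjusted p = 0.901) and 1.35 ± 0.09 for H/R against control (adjusted p = 3.09e-09, 2.55-fold). Without LITAF library 1 the value for LITAF against H/R had the other sign, 0.05 (adjusted p = 0.797).

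Nupr1, a small chromatin-associated stress protein, was the member with the largest difference in LITAF cells. Its level was 137, 151, 155 and 151 CPM in LITAF cells, 91.7, 99.9, 105 and 87.8 CPM in H/R cells and 15.5, 15.8, 19.5 and 19.6 CPM in control cells. The 3 groups did not overlap, with LITAF cells highest and control cells lowest. Nupr1 had a log2 fold change of 0.63 ± 0.10 for LITAF against H/R (1.55-fold, adjusted p = 0.00207) and 2.45 ± 0.11 for H/R against control (5.45-fold, adjusted p = 3.24e-11). The first of these passed in all 16 alternatives run, with adjusted p up to 0.0142.

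Trib3, a pseudokinase that is induced by ATF4 and feeds back on it, and Eif4ebp1, which holds back cap-dependent translation by binding eIF4E, had the largest differences between H/R and control cells. Trib3 stood at 179, 179, 159 and 171 CPM in LITAF cells, 132, 149, 135 and 175 CPM in H/R cells and 22.2, 29.0, 22.7 and 27.1 CPM in control cells. Its LITAF and H/R ranges overlapped through H/R library 4, and both lay far above control cells. For Trib3 this gave a log2 fold change of 0.21 ± 0.11 for LITAF against H/R (adjusted p = 0.312) and 2.55 ± 0.12 for H/R against control (5.86-fold, adjusted p = 4.95e-11). Eif4ebp1 stood at 181, 204, 187 and 188 CPM in LITAF cells, 156, 158, 157 and 166 CPM in H/R cells and 26.8, 32.2, 24.9 and 31.3 CPM in control cells. Here the 3 groups did not overlap, and LITAF library 2 was the highest. For Eif4ebp1 the log2 fold change was 0.25 ± 0.10 for LITAF against H/R (adjusted p = 0.158, not passed) and 2.47 ± 0.10 for H/R against control (5.54-fold, adjusted p = 1.23e-11).

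Sesn2, a leucine sensor that restrains mTORC1, had the largest log2 fold change between LITAF and H/R cells among the regulators that did not pass. Its level was 353, 316, 293 and 299 CPM in LITAF cells, 207, 211, 217 and 253 CPM in H/R cells and 103, 144, 113 and 185 CPM in control cells. The LITAF libraries all lay above the H/R libraries, of which library 4 was highest. Its log2 fold change was 0.51 ± 0.15 (adjusted p = 0.0638), and 0.00582 in the test on these 8 libraries alone; between H/R and control cells it was 0.70 ± 0.15 (adjusted p = 0.000678). Stc2, a secreted glycoprotein of the stress response, was the regulator that did not pass between H/R and control cells. It stood at 249.5, 229, 219.8 and 218 CPM in LITAF cells, 189.7, 208, 205 and 222 CPM in H/R cells and 201, 176, 206 and 248 CPM in control cells. All 3 groups overlapped, and the log2 fold change was 0.15 ± 0.11 for LITAF against H/R (adjusted p = 0.456) and -0.01 ± 0.11 for H/R against control (adjusted p = 0.942).

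The other regulators rose in H/R cells against control cells and did not pass between LITAF and H/R cells. The log2 fold change between H/R and control cells was 1.48 for Atf5, an ATF4-related factor also translated under eIF2 phosphorylation, 1.20 for Cebpg, a dimer partner of ATF4, 0.71 for Cebpb, another such partner, and 0.70 for the lipoprotein receptor Vldlr. Between LITAF and H/R cells these values were 0.18 for Atf5, 0.28 for Cebpg (adjusted p = 0.0969), 0.26 for Cebpb and 0.16 for Vldlr. Over the 10 regulators the median was 0.23 for LITAF against H/R and 1.27 for H/R against control.

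**Figure D2:**
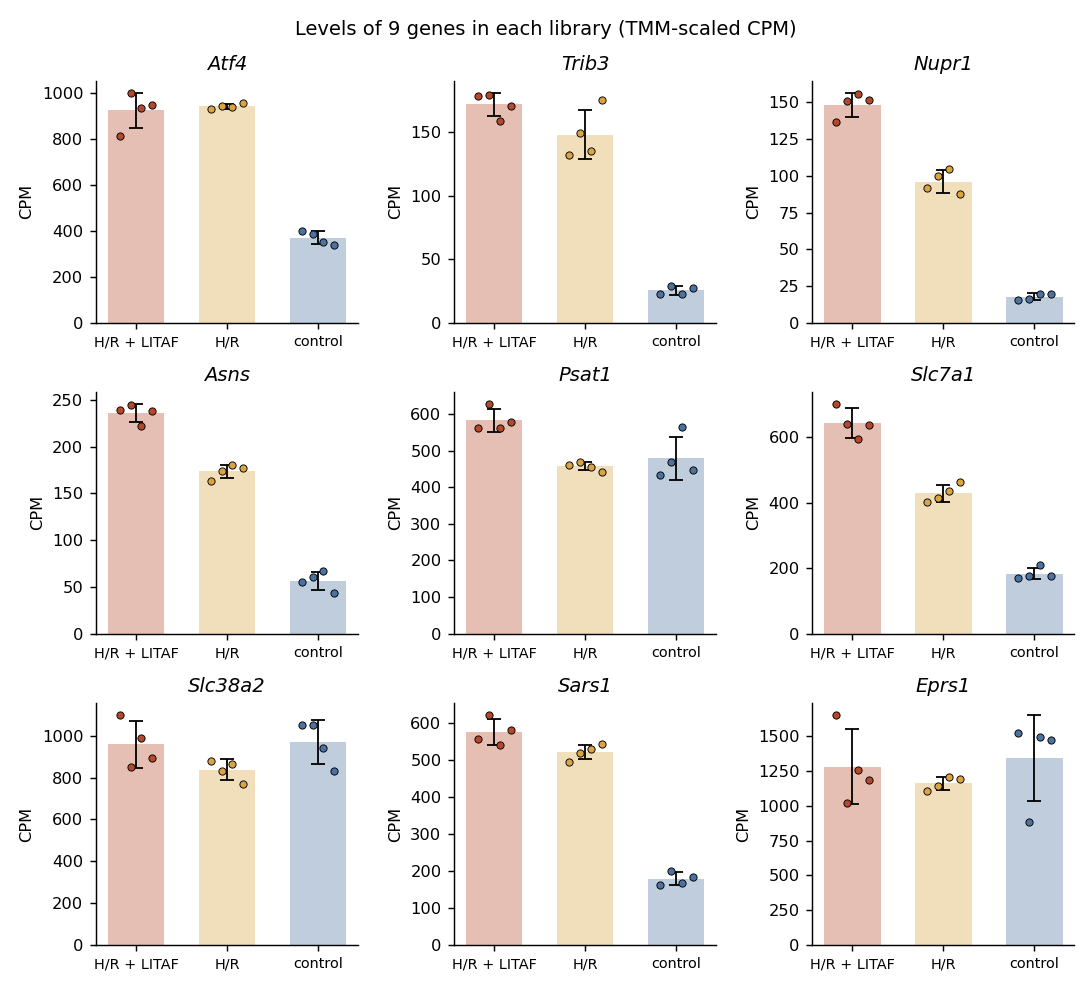
Level in each library (CPM after TMM scaling) of members shown library by library, with LITAF (drawn as H/R + LITAF), H/R and control cells from left to right; points are libraries and bars mark the mean with SD. Nupr1 and Slc7a1 libraries form 3 separate groups, while Atf4 in LITAF cells spans 815 to 999.6 CPM around the H/R libraries.

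The enzymes of amino acid and one-carbon synthesis held 2 of the 4 members that rose in LITAF cells. Asns makes asparagine from aspartate and glutamine, and Psat1 is the aminotransferase of the serine pathway. Asns stood at 239, 245, 222 and 238 CPM in LITAF cells, 164, 174, 179.9 and 177 CPM in H/R cells and 54.7, 60.2, 66.7 and 43.8 CPM in control cells. The 3 groups did not overlap. Asns had a log2 fold change of 0.44 ± 0.11 for LITAF against H/R (1.36-fold, adjusted p = 0.0308) and 1.62 ± 0.12 for H/R against control (3.08-fold, adjusted p = 4.92e-09). The call between LITAF and H/R cells held without LITAF library 1 and was lost without any one of the other 7 libraries, with adjusted p of 0.0599 to 0.118.

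Psat1 was the only member that rose between LITAF and H/R cells without rising between H/R and control cells. It stood at 562, 628, 563 and 579 CPM in LITAF cells, 461, 468, 456 and 442 CPM in H/R cells and 433, 470.3, 564 and 449 CPM in control cells. Each LITAF library lay above each H/R library, while the control range, of which library 3 was highest, covered the whole H/R range. On the log2 scale Psat1 differed by 0.35 ± 0.10 for LITAF against H/R (1.28-fold, adjusted p = 0.0462) and -0.07 ± 0.10 for H/R against control (adjusted p = 0.553). Among the fits without 1 library, the first call held only without LITAF library 1, with adjusted p of 0.0886 to 0.129 in the other 7. It passed in 6 of all 16 alternatives and was lost with library totals, upper-quartile scaling and no filter. The value for H/R against control turned to 0.06 with library totals, 0.05 with upper-quartile scaling and 0.02 without control library 3.

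Psph, which completes serine synthesis, and Pycr1, which makes proline in mitochondria, had the largest differences between H/R and control cells in this role. Psph stood at 175, 174, 147 and 158 CPM in LITAF cells, 143, 149, 147 and 161 CPM in H/R cells and 35.3, 51.6, 40.9 and 46.3 CPM in control cells. LITAF and H/R cells overlapped, with control cells apart from both. For Psph the log2 fold change was 0.12 ± 0.11 for LITAF against H/R (adjusted p = 0.593) and 1.79 ± 0.12 for H/R against control (3.45-fold, adjusted p = 1.9e-09). Pycr1 stood at 40.5, 58.1, 52.0 and 55.3 CPM in LITAF cells, 39.8, 36.9, 36.1 and 41.2 CPM in H/R cells and 14.2, 8.17, 8.39 and 9.11 CPM in control cells. LITAF library 1 lay within the H/R range, and the other 3 LITAF libraries lay above it. For Pycr1 the log2 fold change was 0.42 ± 0.16 for LITAF against H/R (adjusted p = 0.139, and 0.0327 without LITAF library 1, with a log2 value of 0.54) and 1.95 ± 0.17 for H/R against control (3.86-fold, adjusted p = 4.21e-08).

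The remaining synthesis enzymes rose between H/R and control cells. Their log2 fold changes were 1.08 for Mthfd2 and 0.79 for Shmt2, both of the mitochondrial folate pathway, 0.68 for Phgdh, the first enzyme of serine synthesis, and 0.30 for Aldh18a1, the first enzyme of proline synthesis (adjusted p = 0.00556). Between LITAF and H/R cells they were 0.20 for Mthfd2, 0.06 for Shmt2, 0.19 for Phgdh and 0.24 for Aldh18a1 (adjusted p = 0.126), and none of the 4 passed. Within the serine pathway, Phgdh and Psph rose in H/R cells against control cells and Psat1 did not pass. In LITAF cells against H/R cells Psat1 rose and Phgdh and Psph did not pass. Differences between the fold changes of Phgdh, Psat1 and Psph were not tested.

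Of the amino acid transporters, Slc7a1, the carrier of arginine and lysine, rose in both comparisons. It stood at 702, 639.6, 594 and 635 CPM in LITAF cells, 402, 414, 435 and 461 CPM in H/R cells and 171, 176, 209 and 177 CPM in control cells. The 3 groups did not overlap, and the lowest LITAF library lay well above the highest H/R library. Slc7a1 had a log2 fold change of 0.59 ± 0.10 for LITAF against H/R (1.50-fold, adjusted p = 0.00164) and 1.22 ± 0.10 for H/R against control (2.33-fold, adjusted p = 1.69e-08). The call for LITAF against H/R held in all 16 alternatives, with adjusted p up to 0.013.

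Slc7a5, the carrier of large neutral amino acids, and the neutral amino acid carriers Slc1a4 and Slc1a5 rose in H/R cells against control cells and did not pass between LITAF and H/R cells. Slc7a5 stood at 1076, 1009, 946 and 997 CPM in LITAF cells, 733, 774, 757 and 873 CPM in H/R cells and 417, 534, 422 and 576 CPM in control cells. Its 3 groups did not overlap, and the log2 fold change was 0.36 ± 0.11 for LITAF against H/R (adjusted p = 0.0787, and 0.0142 on these 8 libraries alone) and 0.69 ± 0.11 for H/R against control (adjusted p = 5.79e-05). Slc1a4 stood at 601, 562, 480.2 and 543 CPM in LITAF cells, 465, 479, 479.6 and 528 CPM in H/R cells and 298, 271, 287 and 259 CPM in control cells. Slc1a5 stood at 124, 126, 113 and 115 CPM in LITAF cells, 90.5, 95.6, 91.3 and 116 CPM in H/R cells and 47.5, 47.7, 56.3 and 66.2 CPM in control cells. In both, LITAF and H/R libraries overlapped and control libraries lay below. Their log2 fold changes were 0.16 for Slc1a4 and 0.29 for Slc1a5 between LITAF and H/R cells, and 0.81 for Slc1a4 (adjusted p = 1.55e-06) and 0.85 for Slc1a5 (adjusted p = 1.35e-05) between H/R and control cells.

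Slc38a2, the sodium-coupled carrier of small neutral amino acids known as SNAT2, did not pass in either comparison. It stood at 1100.1, 851, 991 and 892 CPM in LITAF cells, 881, 829.9, 867 and 768 CPM in H/R cells and 1049, 1052, 943 and 832 CPM in control cells. The 3 groups overlapped, and the highest value was that of LITAF library 1. On the log2 scale the difference was 0.20 ± 0.11 for LITAF against H/R (adjusted p = 0.319) and -0.21 ± 0.11 for H/R against control (adjusted p = 0.0913). Without control library 4 H/R against control passed as lower, at -0.28 (adjusted p = 0.0289).

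None of the 19 cytosolic tRNA synthetases passed between LITAF and H/R cells in edgeR's test on all 12 libraries, where their log2 fold changes ran from -0.20 (Farsa) to 0.28 (Cars1), with a median of 0.12. Of all genes tested, 3.73% rose and 1.15% fell. At an unadjusted p under 0.05 there was 1 of 19, Cars1, higher (11.3% of all genes tested), and DESeq2 called 0. In 6 synthetases every LITAF library lay above every H/R library, and in 1, Rars1, below. Of all genes tested, 10.6% lay above and 8.30% below in this way. Between H/R and control cells 14 of the 19 rose (31.8% of all genes tested), with a median of 0.51. The highest were Sars1, Wars1, Yars1 and Nars1, which load serine, tryptophan, tyrosine and asparagine.

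Sars1 stood at 559, 624, 543 and 583 CPM in LITAF cells, 496, 521, 531 and 543 CPM in H/R cells and 162, 201, 169 and 183 CPM in control cells. Wars1 stood at 197, 169, 163 and 159.7 CPM in LITAF cells, 172, 176, 181 and 198 CPM in H/R cells and 69.1, 61.0, 61.9 and 64.4 CPM in control cells. Nars1 stood at 657, 566, 572 and 566 CPM in LITAF cells, 507, 509.8, 527 and 529 CPM in H/R cells and 198, 209, 252 and 192 CPM in control cells. In these genes all H/R libraries lay above all control libraries by a wide margin, LITAF and H/R libraries of Sars1 and Wars1 overlapped, and those of Nars1 did not, with LITAF library 1 the highest. The log2 fold change between H/R and control cells was 1.55 ± 0.09 for Sars1 (2.92-fold, adjusted p = 8.05e-10), 1.50 ± 0.10 for Wars1 (2.83-fold, adjusted p = 1.75e-09) and 1.28 ± 0.10 for Nars1 (2.44-fold, adjusted p = 1.56e-08). Between LITAF and H/R cells it was 0.14 for Sars1, -0.08 for Wars1 and 0.19 for Nars1, with adjusted p of 0.416, 0.713 and 0.308.

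Cars1, which loads cysteine, had the largest value among the synthetases between LITAF and H/R cells. It stood at 444, 464, 412 and 437 CPM in LITAF cells, 344, 359, 344 and 403 CPM in H/R cells and 283, 185, 281 and 272 CPM in control cells. LITAF libraries all lay above H/R libraries, and these above control libraries, of which library 2 was lowest. Cars1 had a log2 fold change of 0.28 ± 0.12 for LITAF against H/R (adjusted p = 0.218, and 0.0348 on these 8 libraries alone) and 0.51 ± 0.12 for H/R against control (adjusted p = 0.00181). Hars1, which loads histidine, had the largest value between H/R and control cells among the synthetases that did not pass. It stood at 134, 154, 138 and 148 CPM in LITAF cells, 156, 143, 151 and 156 CPM in H/R cells and 147, 103, 111 and 142 CPM in control cells. Its groups overlapped in both comparisons, with control libraries 2 and 3 lowest. For Hars1 the log2 fold change was -0.08 ± 0.12 for LITAF against H/R (adjusted p = 0.757) and 0.27 ± 0.12 for H/R against control (adjusted p = 0.0546, 0.0151 without control library 1 and 0.0258 without control library 4).

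The other synthetases that rose between H/R and control cells were Yars1 at a log2 fold change of 1.35, Aars1 (alanine) at 0.95, Tars1 (threonine) at 0.61, Qars1 (glutamine) at 0.58, Vars1 (valine) at 0.53, Lars1 (leucine) at 0.52, Iars1 (isoleucine) at 0.50, Mars1 (methionine) at 0.50, Rars1 (arginine) at 0.38 and Kars1 (lysine) at 0.21. Those that did not pass, besides Hars1, were both subunits of the phenylalanine enzyme, Farsa at 0.12 and Farsb at 0.25, the glycine enzyme Gars1 at 0.01 and Eprs1 (glutamate and proline) at -0.21. Calls near the threshold moved with single libraries: Kars1 (adjusted p = 0.0429) was lost without any one H/R library and without control library 2 or 3 (adjusted p of 0.064 to 0.124), Farsb (adjusted p = 0.0598) passed without control library 3 (0.0333) and Eprs1 passed as lower without control library 2 (-0.36, adjusted p = 0.0234). With the replicate number as a block, Kars1 did not pass (adjusted p = 0.0532) and Hars1 did (0.0445) with all 12 libraries, and Farsb also passed (0.0253) with the 2 groups alone.

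**Figure D3:**
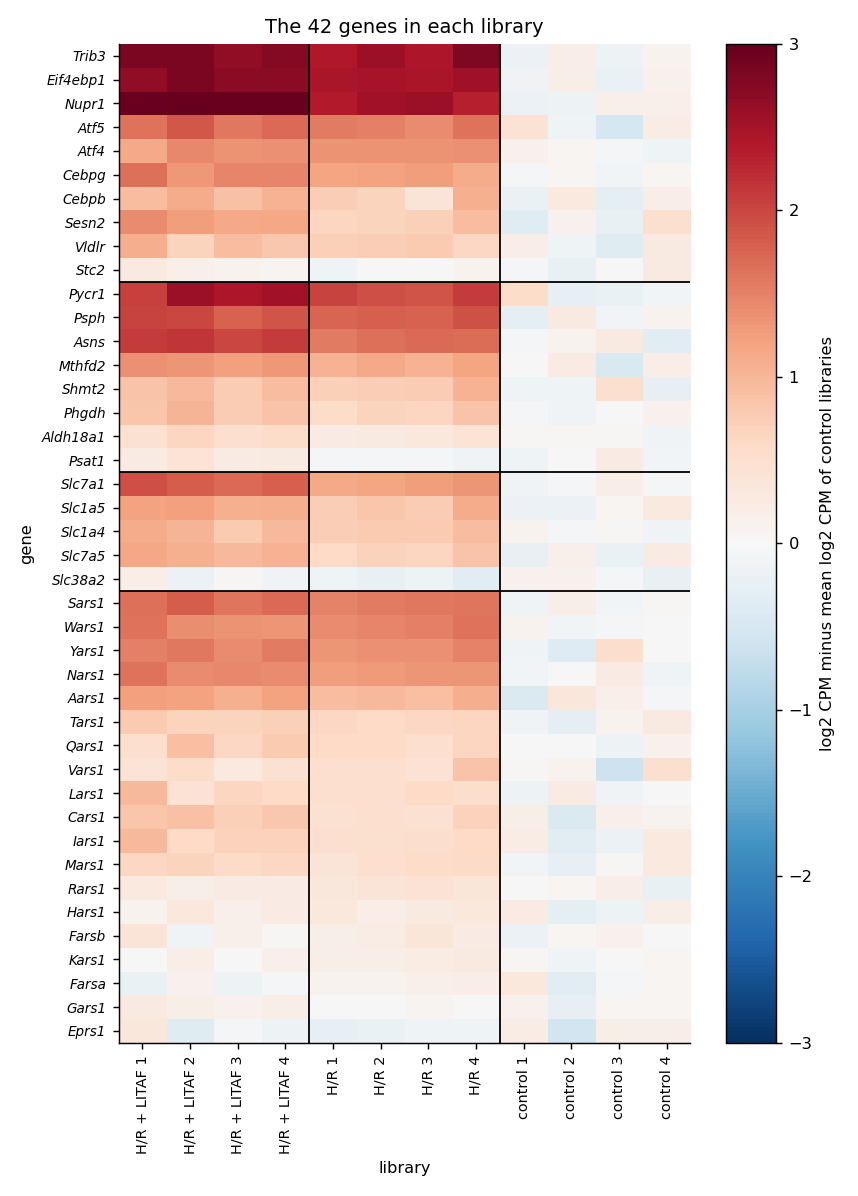
Level of each member in each of the 12 libraries as the difference in log2 CPM from the gene's mean over the control libraries (colour, log2 units, with values above 3 drawn in the colour of 3; rows grouped by role; LITAF, drawn as H/R + LITAF, H/R and control libraries from left to right). Most rows are redder in H/R libraries than in control libraries, and Eprs1, Gars1, Farsa, Slc38a2 and Stc2 are among the rows that are not.

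Mitochondria carry their own set of tRNA synthetases, encoded by other nuclear genes, and these gave a second reading for the same amino acids. Of 15 mitochondrial synthetases tested, 2 rose and 7 fell between H/R and control cells, where 31.8% of all genes tested rose and 31.8% fell. Among those that passed were Iars2 (isoleucine; adjusted p = 8.69e-08), which fell, and Fars2 (phenylalanine; 0.98 ± 0.12, adjusted p = 3.28e-06), which rose. For 12 amino acids a cytosolic and a mitochondrial gene of matching name were compared. In 11 of these 12 the cytosolic gene had the higher log2 fold change, threonine being the exception. All 12 cytosolic genes of these pairs rose, and of the 12 mitochondrial genes 1 rose and 5 fell. The medians were 0.57 and -0.19. Phenylalanine and proline were left out of the pairs, though genes of both kinds were tested. For phenylalanine, Farsa (0.12) and Farsb (0.25) did not pass and lay below Fars2 (0.98). For proline, Eprs1 (-0.21) did not pass, and Pars2 averaged 7.83 CPM in H/R cells and 13.2 CPM in control cells. For serine the cytosolic Sars1 had a log2 fold change of 1.55 ± 0.09 and the mitochondrial Sars2 of -0.42 ± 0.14, and for isoleucine Iars1 had 0.50 ± 0.13 and Iars2 -1.03 ± 0.09. The members of a pair were measured in the same libraries, and the difference between the 2 sets was not tested.

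Between LITAF and H/R cells the cytosolic gene of the pair had the higher value in 9 of the same 12 amino acids, with medians of 0.14 and -0.03. Of the 15 mitochondrial synthetases tested 1 rose and 2 fell, where 3.73% of all genes tested rose and 1.15% fell. Mars2 (methionine) stood at 19.1, 19.7, 19.96 and 18.9 CPM in LITAF cells against 13.2, 12.9, 13.8 and 13.8 CPM in H/R cells, a log2 fold change of 0.53 ± 0.14 (adjusted p = 0.0359). Yars2 (tyrosine) stood at 11.03, 11.3, 10.9 and 13.01 CPM in LITAF cells against 14.9, 15.5, 14.8 and 16.3 CPM in H/R cells (-0.41 ± 0.11, adjusted p = 0.0413), and Rars2 (arginine) at 11.3, 9.83, 11.2 and 11.1 CPM in LITAF cells against 14.3, 12.8, 15.3 and 15.1 CPM in H/R cells (-0.40 ± 0.11, adjusted p = 0.0462). In each of the 3 the groups did not overlap. Of all genes tested, 10.6% had all LITAF libraries above all H/R libraries and 8.30% had them below. The calls of Mars2 and Rars2 held without LITAF library 1 and were lost without any one of the other 7 libraries (adjusted p of 0.0676 to 0.108 for Mars2 and 0.07 to 0.149 for Rars2), and that of Yars2 was lost without any one of the 8 (0.0546 to 0.135).

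**Figure D4:**
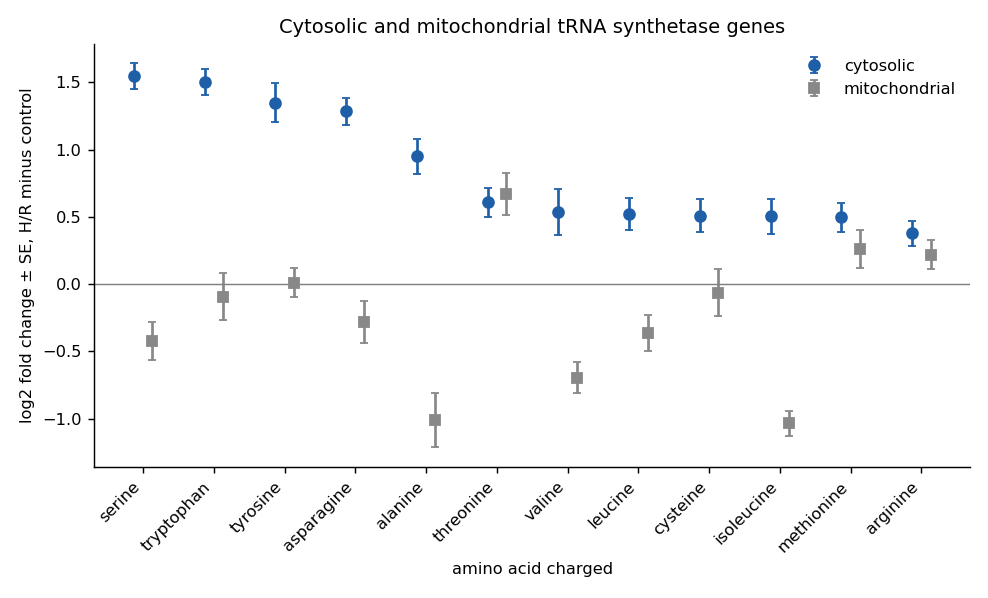
Log2 fold change with SE of the cytosolic and the mitochondrial tRNA synthetase for 12 amino acids, between H/R and control cells (y axis, log2 units; amino acids ordered by the cytosolic value). The cytosolic gene lies above the mitochondrial one for 11 of these 12 amino acids. Phenylalanine and proline are not drawn.

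LITAF cells against control cells gave the sum of the comparisons described so far, since the groups are shared. In this comparison 33 members rose (32.0% of all genes tested did so), 0 fell by edgeR's test (32.6% of all genes tested fell), also at an unadjusted p under 0.05 and by DESeq2, and 9 did not pass, with a median log2 fold change of 0.92 and 19 members at 2-fold or more; by role these were 9 of 10 regulators, 8 of 8 synthesis enzymes, 4 of 5 transporters and 12 of 19 synthetases. The largest values were 3.08 ± 0.11 for Nupr1, 2.77 ± 0.12 for Trib3, 2.72 ± 0.10 for Eif4ebp1, 2.37 ± 0.17 for Pycr1 and 2.07 ± 0.12 for Asns. The mean level was highest in LITAF cells and lowest in control cells in 30 of the 42 members. Of the calls, Psat1 (adjusted p = 0.016) was lost without LITAF library 2 (0.0544), and Rars1 (0.0418) without any one of LITAF libraries 2, 3 and 4 and control libraries 1 and 4 (0.0529 to 0.11). Gars1 passed without control library 1 (0.0485), as did Hars1 (0.0484), and Stc2 (0.0408) and Vars1 (0.00676) passed without control library 4.

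The promoter matches shown above can be set beside the RNA values. All 12 members with TGATGNAA in the promoter rose between H/R and control cells, so that 12 of the 30 members with a promoter that rose held it, and 0 of the 7 that did not pass. Of all genes tested 31.8% rose, and the share among all tested genes that hold the element was not counted. The median log2 fold change between H/R and control cells was 1.09 in the 12 with the element and 0.69 in the 25 without. Between LITAF and H/R cells these medians were 0.21 and 0.15, and 2 of the 4 members that rose held the element, Nupr1 and Slc7a1. In that comparison 3.73% of all genes tested rose. Psph, Asns, Sars1 and Wars1, without a match in this window, had log2 fold changes between H/R and control cells of 1.79, 1.62, 1.55 and 1.50. Sequence outside this window was not searched, and the difference between members with and without a match was not tested.

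**Figure D5:**
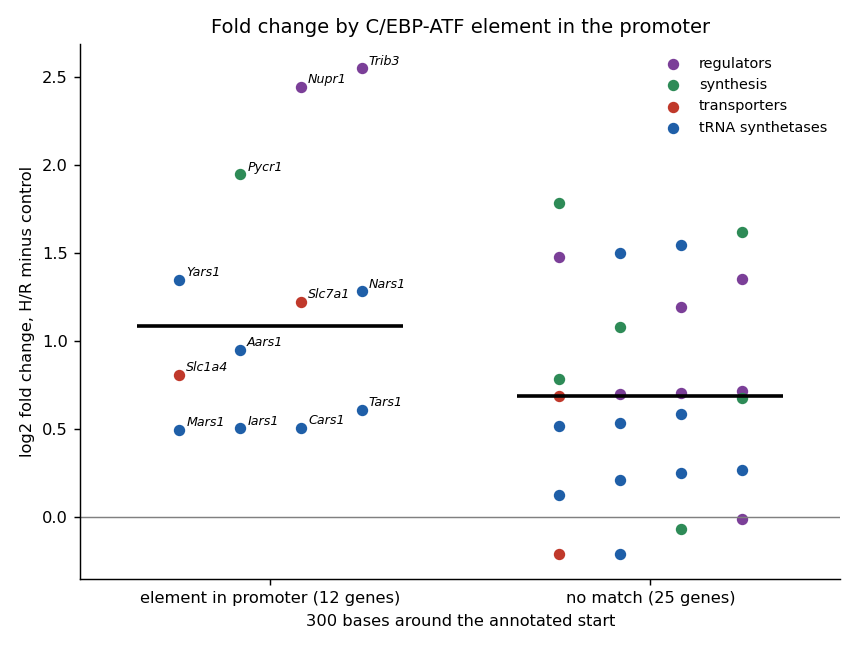
Log2 fold change between H/R and control cells of the 37 members with a promoter entry, split by a TGATGNAA match between 250 bases before and 50 after the start (log2 units; points are genes, bars are medians). The 12 genes with a match range from 0.50 to 2.55 and the 25 without from -0.21 to 1.79.

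Upstream of ATF4, no eIF2 kinase and no eIF2 or eIF2B subunit passed between LITAF and H/R cells (0 of 4 and 0 of 8 by edgeR's test). At an unadjusted p under 0.05 edgeR gave 1 kinase, Eif2ak2, and 1 subunit, Eif2s1, both lower, where 8.76% of all genes tested were lower. DESeq2 called 0 in each list. Between H/R and control cells Eif2ak3, the kinase PERK of the endoplasmic reticulum, rose (0.50 ± 0.10, adjusted p = 0.000302), while Eif2ak4, the amino acid sensor GCN2, and Eif2ak2, the RNA sensor PKR, fell (-0.81 ± 0.15, adjusted p = 0.000219, and -1.11 ± 0.22, adjusted p = 0.000317). Of the 8 subunits 4 rose and 0 fell, where 31.8% of all genes tested rose and 31.8% fell. They were led by Eif2b3 (1.68 ± 0.14), Eif2s2 (1.34 ± 0.16) and Eif2s1, the subunit that the kinases phosphorylate (0.80 ± 0.15). These are mRNA levels, and the phosphorylation of eIF2 was not measured.

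A further list held ATF4 pathway genes that are not in the module, and relatives of members (Trib1, Trib2, Sesn1, Sesn3 and Eif4ebp2). Of its 20 genes tested, 3 rose (3.73% of all genes tested did so) and 0 fell (1.15%) between LITAF and H/R cells. The median log2 fold change was 0.34, and all 20 had a positive value, against 48.2% of all genes. In 9 the LITAF libraries all lay above the H/R libraries, as in 10.6% of all genes tested. Ddit3, also on the list, was not in this fit and was lower in the separate fit given below. Trib1, a pseudokinase related to Trib3, stood at 106, 110.3, 109.6 and 118 CPM in LITAF cells against 57.6, 55.3, 52.7 and 58.6 CPM in H/R cells (0.99 ± 0.10, adjusted p = 1.32e-05). Chac1, which breaks down glutathione, stood at 215, 228, 218 and 229 CPM in LITAF cells against 157, 168, 160.1 and 180.2 CPM in H/R cells (0.42 ± 0.10, adjusted p = 0.0266). The stress factor Atf3 stood at 101, 102, 90.05 and 106 CPM in LITAF cells against 72.7, 76.9, 76.0 and 74.4 CPM in H/R cells (0.41 ± 0.11, adjusted p = 0.0422). In all 3 genes the groups did not overlap, and Trib1 passed in all 16 alternatives. Without single libraries, the Chac1 call held without LITAF library 1 and without H/R library 4 and was lost without any one of the other 6 (adjusted p of 0.0613 to 0.107), and the Atf3 call held only without LITAF library 1 (0.0583 to 0.146 without one of the other 7). Ppp1r15a, the stress-induced eIF2 phosphatase subunit, and Slc7a11, the cystine carrier, did not pass, at 0.19 ± 0.16 (adjusted p = 0.545) and 0.51 ± 0.24 (adjusted p = 0.241); Slc7a11 stood at 223, 78.2, 131 and 91.3 CPM in LITAF cells, of which library 1 was far above the rest, and without it the value was 0.14.

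Ddit3, the ATF4-induced factor CHOP, could only be tested between LITAF and H/R cells, because its ID appears in rows that differ in the control columns. It stood at 71.9, 58.6, 59.9 and 56.2 CPM by library totals in LITAF cells, against 72.5, 80.6, 89.3 and 88.2 CPM in H/R cells. All 4 LITAF libraries lay below all 4 H/R libraries, though LITAF library 1 lay just under H/R library 1. The log2 fold change was -0.37 ± 0.09 (adjusted p = 0.0335, edgeR's quasi-likelihood test on these 8 libraries, where 2.88% of 11292 genes fell), opposite in sign to that of Nupr1, Slc7a1, Asns and Psat1. Those 4 were called in the fit of all 12 libraries, and the Ddit3 call was not rerun without single libraries.

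Between H/R and control cells 15 of the 20 further genes tested rose and 4 fell (31.8% and 31.8% of all genes tested). The 4 that fell were all among Trib1, Trib2, Sesn1, Sesn3 and Eif4ebp2, the relatives of members. The smallest p-values belonged to Slc3a2, the heavy chain that pairs with Slc7a5 and Slc7a11 (2.69 ± 0.11), Atf3 (2.55 ± 0.12) and Ppp1r15a (2.78 ± 0.17), with adjusted p of 5.81e-12, 3.68e-11 and 7.51e-10. Chac1 (1.23 ± 0.10) and Slc7a11 (1.03 ± 0.24) rose as well, whereas Trib1, which rose in LITAF cells against H/R cells, fell here (-1.52 ± 0.10, adjusted p = 1.74e-09).

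In the remaining lists of the pathway, genes both rose and fell between H/R and control cells, as 31.8% and 31.8% of all genes tested did. Of 8 other amino acid transporters 0 passed between LITAF and H/R cells, and between H/R and control cells 2 rose and 5 fell: the glutamate carrier Slc1a3 (-4.47 ± 0.13) and the glutamine carrier Slc38a1 (-2.54 ± 0.17) fell, and the lysosomal carrier Slc36a1 rose (1.03 ± 0.12). Of 14 other enzymes of one-carbon, proline and glutamine metabolism 0 passed between LITAF and H/R cells, and 4 rose and 5 fell between H/R and control cells, near the shares over all genes. Among them the cytosolic folate enzyme Mthfd1 fell (-1.79 ± 0.09), whereas its mitochondrial relative Mthfd1l rose (1.48 ± 0.12). Of 4 further genes of the cytosolic charging machinery, the scaffold genes Aimp1 (1.15 ± 0.11) and Aimp2 (1.18 ± 0.12) rose between H/R and control cells, Tars3, a close relative of Tars1, fell (-0.61 ± 0.11), and 0 of the 4 passed between LITAF and H/R cells. Between LITAF and H/R cells at an unadjusted p under 0.05, edgeR gave 3 of the 8 transporters, all higher. It gave 1 of the 14 enzymes higher and 1 lower, and 2 of the 4 charging genes, both lower. Of all genes tested, 11.3% were higher and 8.76% lower at this threshold. DESeq2 called 0 in each of the 3 lists.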

How the data were processed

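RNA from H9C2 cells was sequenced in 12 libraries, 4 in each of 3 groups taken from the sample titles. The authors deposited estimated counts of reads per gene with rat Ensembl IDs, raw and not normalized per the file headers. Not all were whole numbers, and decimals were rounded. The submitters' processing notes list DESeq2 and edgeR without a role or version. No source used here names the aligner, genome build, annotation or strand setting, so overlapping genes and close relatives are uncertain. Of 16204 rows and 16074 gene IDs, 72 IDs whose rows differed were left out, which left 16002.

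Genes were filtered with edgeR's filterByExpr (11398 kept) and TMM-scaled. One model held all 12 libraries with the group as its term, and contrasts were tested two-sided with edgeR's quasi-likelihood F-test (edgeR 4.0.16, limma 3.58.1, R 4.3.3), with Benjamini-Hochberg adjustment over all genes tested and a threshold of 0.05. "Rose" and "fell" mean past this threshold. The common biological coefficient of variation was 14.5%, and depth differed little between libraries. SE is the size of the log2 fold change over the root of F. Levels are CPM after TMM scaling, not corrected for gene length, so they are not compared between genes. The test was checked on simulated counts. Alternatives were DESeq2 1.42.0, library totals, upper-quartile scaling, no filter, a replicate block, only the 2 groups compared, duplicated IDs kept, and leaving out each library.

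Same-numbered H/R and control libraries deviated together across genes (r of 0.30 to 0.57 in 4 pairs), so these numbers were taken to pair them, from the data and not from a label. Those of LITAF and H/R libraries (0.054 to 0.20) were not. The main model held no term for this pairing, so its p-values do not use it. The replicate block was run only as an alternative. The members, the pathway lists and the tests were chosen with earlier results of these data known. Genes shown library by library were Litaf, Atf4 and, per role and comparison, the 3 members with the smallest p that passed and the 1 with the largest log2 fold change that did not. Of the pathway lists, up to 3 genes with the smallest p that passed are named per list and comparison, with Ddit3, Atf3, Chac1, Ppp1r15a and Slc7a11 always; 86 genes were listed and 80 found. Some genes that this rule names are not reported here. Promoters are RefSeq's for GRCr8, matched by symbol or ID, and only the first entry listed for each gene was searched.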

Additional observations from a re-analysis of the deposited data

Results flagged for a closer look

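In 10 of 126 groups of 4 libraries (42 members in 3 groups), the highest or lowest library lay far from the other 3, by a gap-to-range ratio above Dixon's critical value for 4 samples; chance gives about 1 in 20 such groups. Among the synthetases, Nars1 was 657 CPM in LITAF library 1 (other LITAF libraries 566 to 572), Aars1 was 961 CPM in LITAF library 3 (others 1052 to 1067) and Lars1 was 279 CPM in H/R library 3 (others 263 to 266). Shmt2 was 409.6 CPM in H/R library 4 (others 327 to 336) and 280.4 CPM in control library 3 (others 169 to 183). In control cells, Eprs1 was 884 CPM in control library 2 (others 1478 to 1525) and Cars1 was 185 CPM in the same library (others 272 to 283). Slc7a1 was 209 CPM in control library 3 (others 171 to 177), Pycr1 was 14.2 CPM in control library 1 (others 8.17 to 9.11) and Aldh18a1 was 349.9 CPM in control library 4 (others 381 to 385).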

How the results depend on the processing

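For LITAF against H/R, 556 genes and 4 members were called. The counts were 902 genes and 8 members with DESeq2, 525 and 2 with library totals, 1098 and 11 with the 2 groups alone, and 1108 and 11 with duplicated IDs kept. With the replicate number as a block they were 873 and 6 (all 12 libraries) and 887 and 6 (2 groups), although these numbers were not taken to pair LITAF and H/R libraries. Without 1 library they ran from 244 to 1285 genes and from 2 to 5 members. The cause of these shifts was not tested. For H/R against control the block gave 34 members (12 libraries) and 35 (2 groups), and changed no call other than those of Kars1, Hars1 and Farsb; without 1 library 0 to 1 members fell. For LITAF against control the block gave 34 and 32 members, with Vars1 passing in both and Psat1 and Rars1 lost in the second. The members' median for H/R against control was 0.83 with library totals and 0.82 with upper-quartile scaling, which moved the median of all genes to 0.13 and 0.12; for LITAF against control it was 1.02 with upper-quartile scaling.

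Some log2 fold changes near 0 changed sign. For H/R against control, Gars1 (0.01) was -0.00088 with DESeq2 and -0.056 to 0.060 without 1 library. Stc2 (-0.01) was 0.12 with library totals, 0.11 with upper-quartile scaling, 0.0040 with no filter and -0.079 to 0.086 without 1 library. Psat1 (-0.07) was 0.058, 0.048 and, without 1 library, -0.11 to 0.021. For LITAF against control, Slc38a2 (-0.02) was 0.066, 0.083, 0.0029 with no filter and -0.083 to 0.028 without 1 library. Eprs1 (-0.07) was 0.0082 with library totals, 0.025 with upper-quartile scaling and -0.22 to 0.016 without 1 library, and Farsa (-0.08) was 0.026 with upper-quartile scaling and -0.18 to 0.033 without 1 library. Atf4 for LITAF against H/R ran from -0.074 to 0.049 without 1 library. With 4 libraries in each group, log2 fold changes of up to 0.51 (Sesn2, LITAF against H/R) did not pass, which does not show that such genes did not differ.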

Other observations

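Within groups, some libraries were often the highest or the lowest over the 42 members. In LITAF cells library 1 was the highest in 20 members (36.7% of all genes tested) and library 2 in 21 (34.9%), and library 3 was the lowest in 20 (13.6%). H/R library 4 was the highest of the 4 H/R libraries in 31 members (34.7% of all genes tested) and H/R library 1 the lowest in 27 (20.6%). These differences in share were not tested. In control cells no library was the highest in more than 13 members or the lowest in more than 14. The median coefficient of variation of the members was 6.81% in LITAF cells, 5.13% in H/R cells and 15.05% in control cells; it was largest for Eprs1 in LITAF cells (21.0%), Cebpb in H/R cells (19.1%) and Vars1 in control cells (29.5%).

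Of the 42 members, 3 rose in both LITAF against H/R and H/R against control, 31 rose in H/R against control without passing in LITAF against H/R, 1 rose in LITAF against H/R alone (Psat1) and 7 passed in neither. H/R libraries enter both comparisons, so these counts are not independent.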
